A study of Rattus norvegicus with 8 samples.

Results

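Bcl6 encodes a transcriptional repressor, and the genes described here are Bcl6 itself, its close relative Bcl6b, the corepressors Ncor1 and Bcor, and 5 genes reported to be repressed by BCL6, namely Prdm1, Ccnd1, Ccnd2, Cdkn1a and Bcl2l1. The 9 genes were looked for by matching the RefSeq transcript of every probe on the array to its rat gene. A named probe was found for 7 of the 9 genes, while Ncor1 and Bcor had none, so that both corepressors were not analysed here. The 7 genes were measured by 13 probes, and all 13 were well above background on at least 4 arrays, as were 23425 of the 30367 probes of the array. Where a gene had several probes, the one with the highest mean signal is described first and called the leading probe.

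RNA was isolated from cortical kidney slices of adult rats of the strain RCCHanTMWIST, an outbred Wistar stock. There were 4 males and 4 females, none of which received a treatment according to the labels, and the labels state that every animal was its own sample. Each sample was hybridized to 1 one-colour Agilent array with probes for the whole rat genome. Sex was the only difference between the groups that the labels name.

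BCL6 (B-cell CLL/lymphoma 6) is a zinc finger protein best known from germinal centre B cells, where it holds back differentiation and the response to DNA damage. Through its BTB domain it recruits the corepressors NCOR1 and BCOR, which bring histone deacetylases or Polycomb proteins to the target gene. Its recognition sequence resembles that of the STAT factors, and in the liver BCL6 and STAT5, the transcription factor activated by growth hormone and prolactin, are known to meet at shared target genes.

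Values are log2 signals from which the 75th percentile of the same array was subtracted, so that 0 stands for a signal as high as that percentile, and log2 fold-changes are male minus female. A level of one probe cannot be set against that of another probe, because probes differ in how well they hybridize. Across all tested probes, 8.06% passed an adjusted p of 0.05 in limma with Benjamini-Hochberg adjustment, 3.39% higher in males and 4.67% higher in females, and 1.89% had a log2 fold-change of at least 1 as well (0.798% and 1.09%). Males were higher in 42.1% of the probes that passed, and in 54.5% with quantile normalization. The ranges of the sexes did not overlap for 18.4% of the tested probes, with males higher in 7.46% and females in 11%. Without adjustment, 25.6% had a p below 0.05. Of the leading probes of all 11825 genes tested, 9.2% passed the adjusted p. Of the 7 member genes, 1 passed it, which was Bcl6, and 6 did not. The median log2 fold-change of the 7 leading probes was 0.10, beside −0.02 over the leading probes of the 11825 genes tested.

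Bcl6 (A_44_P287301, chromosome 11) was 4.49-fold higher in males. In the females, the log2 signal was −1.65, −1.23, −1.40 and −1.53 in rats 1 to 4. In the males, it was 1.17, 0.79, 0.93 and −0.04. All 4 males lay above all 4 females, and the lowest male, rat 4, was still more than 1 log2 unit above the highest female. Males exceeded females by 2.17 on the log2 scale (standard error, SE, 0.242, 95% confidence interval 1.61 to 2.72), with an adjusted p of 0.00208 from limma. A two-sided exact permutation test gave p = 0.0286, the smallest value that 4 rats against 4 allow. Without male 4, the log2 fold-change was 2.42. The slide that held all arrays had 2 males and 2 females in each of its rows, and the log2 fold-change of Bcl6 was 2.03 within one row and 2.30 within the other. In a tissue sample, fewer cells that express a gene and less of its RNA per cell cannot be told apart. With 4 arrays per sex, the precision of all values is limited by their number.

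**Figure D1:**
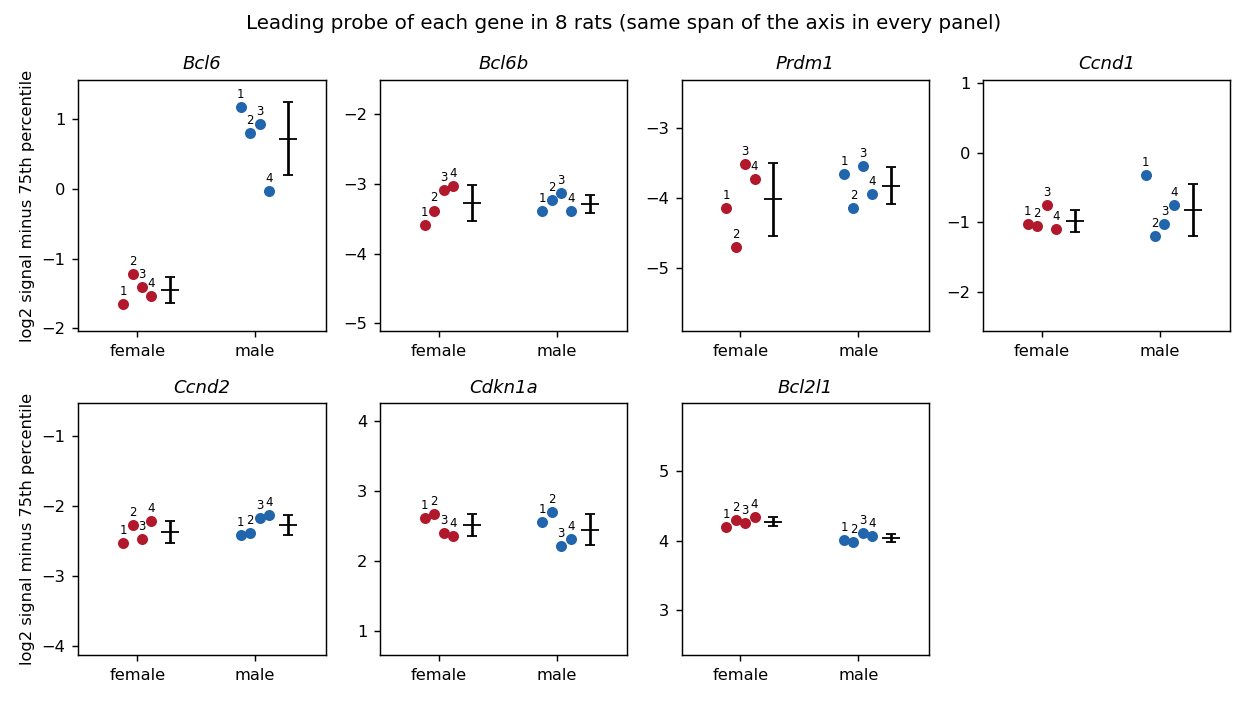
Log2 signal minus the 75th percentile of the array for the leading probe of each of the 7 genes, in 4 female (red) and 4 male (blue) rats, with rat numbers, and with the mean and SD of each sex to the right of its points. Each panel spans the same number of log2 units: the males lie above the females for Bcl6, from −0.04 to 1.17 against −1.65 to −1.23, slightly below them for Bcl2l1, and among them for the other genes.

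Because BCL6 is best known from B cells, markers of lymphocytes were read on the same arrays. Of the B cell markers, Cd79a, Ms4a1 and Jchain had no named probe, and Cd22 and Cr2 were not well above background on enough arrays to be tested. Cd79b was tested and did not pass, with a log2 fold-change of −0.015 (limma adjusted p = 0.976) and overlapping ranges. The 5 T cell markers summed to 0.44 to 0.588 times the percentile in males and 0.42 to 0.512 times in females, and in limma 0 of them passed, also without adjustment. The sums mostly follow the brightest of these probes, that of Cd3d, with a log2 fold-change of 0.05. They do not weigh the 5 markers by their RNA, because probes differ in how well they hybridize. All 5 T cell markers had values above 0, as Bcl6 did, with a median of 0.48 and a range up to 0.96 for Cd3e. The sexes overlapped for each. The probe of Cd3e was dim and well above background on only 5 arrays. It gave −0.53 within one row of the slide and 2.45 within the other. In the same order, the rows gave −0.04 and 1.23 for Cd8a, −0.133 and 1.085 for Cd3g, and 0.06 and 0.62 for Cd4. These 3 markers were well above background on all 8 arrays. For Cd3d, the rows gave 0.02 and 0.08. The part of T cell RNA in the result for Bcl6 was not tested. For the 7 proximal tubule markers the sums were 181 to 194 in males and 180 to 200 in females, and Cubn (cubilin, a receptor for filtered proteins) was the only one that passed, at a log2 fold-change of −0.59 (limma adjusted p = 0.00452). The adrenal markers Cyp11b1 and Star were not well above background. Umod of the thick ascending limb lay at 46 to 53.7 times the percentile in males and at 55.6 to 63.6 times in females, without overlap. Its log2 fold-change of −0.26 did not pass (limma adjusted p = 0.088), and its part in the result for Bcl6 was not tested.

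Bcl6b, which encodes a related repressor that can bind the same DNA sequence, showed no comparable difference. Its leading probe (A_42_P544898, chromosome 10, 10 spots) read −3.59, −3.38, −3.09 and −3.04 in the females and −3.38, −3.23, −3.13 and −3.39 in the males. The males lay within the range of the females. A log2 fold-change of −0.01 was fitted (95% confidence interval −0.32 to 0.30, limma adjusted p = 0.975), and its sign turned to 0.04 with quantile normalization. A second probe (A_64_P126757) gave 0.08. The interval of Bcl6b ended well below that of Bcl6, which began at 1.61.

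Prdm1 encodes BLIMP1, the repressor that drives B cells to plasma cells and the best known target of BCL6. The leading probe (A_44_P746333, chromosome 20) read −4.14, −4.71, −3.51 and −3.74 in the females and −3.66, −4.14, −3.55 and −3.95 in the males. The sexes overlapped, and the widest spread was among the females, where rat 2 was lowest. The fitted log2 fold-change was 0.20 (95% confidence interval −0.39 to 0.79, limma adjusted p = 0.678), and −0.03 without female 2. A second, dim probe (A_44_P398574), which was not well above background in female 2 and male 2, gave 0.15 with an interval from −0.90 to 1.20.

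The cell cycle genes Ccnd1 and Ccnd2 encode D-type cyclins, which activate CDK4 and CDK6 in the G1 phase. Ccnd1 (A_64_P155393, chromosome 1) read −1.02, −1.05, −0.76 and −1.09 in the females and −0.33, −1.19, −1.01 and −0.74 in the males. Male 1 was the highest of the 8 rats and male 2 the lowest, so that the males spanned the females. The log2 fold-change of Ccnd1 was 0.16 (95% confidence interval −0.25 to 0.57, limma adjusted p = 0.626), and −0.003 without male 1.

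For Ccnd2 (A_44_P477768, chromosome 4), the females read −2.53, −2.27, −2.48 and −2.22, and the males −2.42, −2.39, −2.18 and −2.14. The ranges overlapped, although the 2 highest rats were males. The log2 fold-change was 0.10 (95% confidence interval −0.14 to 0.34, limma adjusted p = 0.614).

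Cdkn1a encodes p21, an inhibitor of cyclin-dependent kinases that is induced after DNA damage. The leading probe (A_64_P123895, chromosome 20) read 2.62, 2.66, 2.40 and 2.35 in the females and 2.56, 2.70, 2.21 and 2.32 in the males. Rats 1 and 2 were the high ones and rats 3 and 4 the low ones in both sexes. Fitted as male minus female, the difference was −0.06 (95% confidence interval −0.36 to 0.23, limma adjusted p = 0.798), and 0.015 without male 3. The second probe (A_44_P914438) gave 0.05. It did not show the split of the rats seen with the leading probe, since female 4 was the highest of the females and male 3 the highest of the males.

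Bcl2l1 encodes BCL-XL, which keeps mitochondria from starting apoptosis. It was the only other member gene whose leading probe separated the sexes. That probe (A_64_P054735, chromosome 3) read 4.20, 4.30, 4.25 and 4.34 in the females and 4.01, 3.99, 4.11 and 4.06 in the males. All 4 females lay above all 4 males, by a small margin. The difference on the log2 scale was −0.23 (SE 0.065, 95% confidence interval −0.38 to −0.08), which is 1.17-fold higher in females. The adjusted p of 0.0691 from limma did not pass the threshold, whereas the exact permutation test gave the smallest p it allows, 0.0286. With an intensity trend and a robust prior in limma, the adjusted p was 0.0284. With quantile normalization, by contrast, the log2 fold-change was −0.16 (limma adjusted p = 0.256, exact permutation p = 0.114), and it was −0.16 in the authors' log2 table too (limma adjusted p = 0.261, exact permutation p = 0.114), so that the separation of the sexes was lost under both.

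The other 3 probes of Bcl2l1 target further RefSeq transcripts or positions, and they varied more. One of them (A_44_P548065) read −4.62, −4.21, −4.60 and −4.73 in the females and −4.74, −5.07, −5.05 and −4.91 in the males. Again the ranges did not overlap and the females were higher, the log2 fold-change being −0.40 (limma adjusted p = 0.0951). The probes A_64_P008047 and A_64_P054730 gave −0.08 and −0.05, with overlapping ranges and intervals that included 0. In all, 3 of the 13 probes of the gene set did not overlap between the sexes, or 23.1%, against 18.4% of all tested probes.

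**Figure D2:**
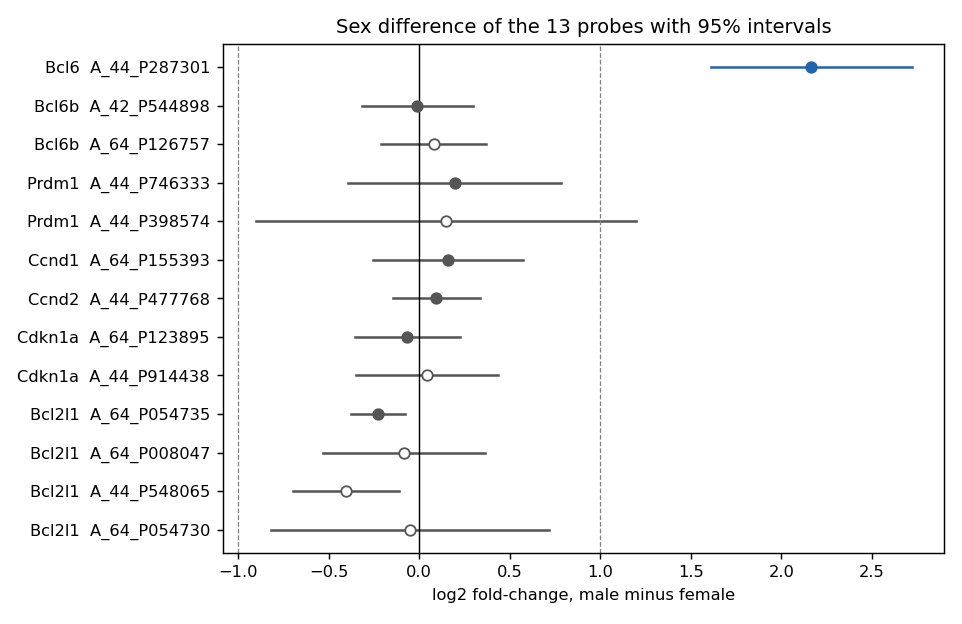
Log2 fold-change (male minus female) of the 13 probes, with 95% confidence intervals from limma as horizontal lines, filled points for leading probes and open points for further probes, blue for the probe with an adjusted p below 0.05, and dashed lines at a log2 fold-change of −1 and 1. Bcl6 stands at 2.17 with an interval from 1.61 to 2.72, and the other points lie between −0.40 and 0.20.

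The spread among rats of one sex differed strongly between the member genes. The pooled within-sex SD was 0.393 for Bcl6, above the SD of 89.2% of the tested probes, and 0.418 for Prdm1, above 90.6%. For the leading probe of Bcl2l1 it was 0.0598, and only 3.92% of the probes had a smaller one. The median over all tested probes was 0.162. A log2 difference of 0.23 was several times the spread of Bcl2l1 and smaller than the spread of Bcl6.

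Each gene was then followed rat by rat beside Bcl6. From the mean of their own sex, Bcl6b, Prdm1 and Cdkn1a deviated to the same side as Bcl6 in 5 of the 8 rats each, Ccnd1 in 4, and Ccnd2 and Bcl2l1 in 3. None of them followed or opposed Bcl6 in every rat once sex was taken out. From the mean of all 8 rats, Bcl2l1 deviated to the opposite side from Bcl6 in all 8 rats, because all of its females lay above all of its males. When Bcl6 was subtracted from each gene array by array, the difference was lower in all 4 males than in all 4 females for the 6 other genes, by −1.97 (Prdm1) to −2.40 (Bcl2l1). Those differences carry the difference of Bcl6 itself. The confidence intervals of the 6 other leading probes reached at most 0.79, below the lower end of the interval of Bcl6 at 1.61.

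Sequence near the start sites was searched because BCL6 and STAT5 read closely related motifs. It is shown for Bcl6 and for the searched genes with a match, Bcl2l1, Cish and Prlr. Windows of 250 bases before the annotated start (RefSeq, build GRCr8) were searched on both strands for TTCNNNGAA, the palindromic STAT core, and for TTCCTAGAA and TTCCTCGAA, the forms of the BCL6 core named in the study. TTCCTAGAA and TTCCTCGAA are both instances of TTCNNNGAA, and on the opposite strand TTCCTAGAA reads TTCTAGGAA. Among 33469 windows of 27457 genes, TTCNNNGAA occurred in 7.67%, TTCCTAGAA in 0.323% and TTCCTCGAA in 0.0538%. Windows could be searched for 6 of the 9 member genes, 9 in all. The letters TTCNNNGAA occurred in 2 of the 9, both belonging to Bcl2l1 and overlapping each other. Of the further genes described below, Socs2, Cdkn1c, Mlph and Anxa13 had no window. The windows of Cdkn2c, Rasl12, Akr1c13, Fitm1, Foxq1, Cpe, Azgp1 and Mlana held no match. Capitals mark the matches, and positions are counted back from the start site, with −1 the last base shown.

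The window of Bcl6, on the plus strand at chr11:90358503-90358752, held none of the 3 motifs, which says only that these letters are not in this window.
Bcl6: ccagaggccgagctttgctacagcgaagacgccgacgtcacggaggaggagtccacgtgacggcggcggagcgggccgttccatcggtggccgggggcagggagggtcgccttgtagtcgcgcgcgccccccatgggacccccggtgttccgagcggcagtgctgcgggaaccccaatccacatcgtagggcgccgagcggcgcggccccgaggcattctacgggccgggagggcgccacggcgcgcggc

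Bcl2l1 had 4 windows, of which the 2 that overlap held the same 2 matches and the others held none. In the window shown, on the minus strand at chr3:161763251-161763500, these were TTCGGAGAA at −229 and TTCATTGAA at −148. Counted from the start site of the overlapping window, they lay at −94 and −13.
Bcl2l1: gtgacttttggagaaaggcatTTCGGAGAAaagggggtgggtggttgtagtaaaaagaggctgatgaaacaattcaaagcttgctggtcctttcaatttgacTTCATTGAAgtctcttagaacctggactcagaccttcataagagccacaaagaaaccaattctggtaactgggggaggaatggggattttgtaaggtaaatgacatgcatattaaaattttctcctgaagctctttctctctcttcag

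Cish, which encodes a cytokine-induced feedback inhibitor of STAT5 signalling, had 4 matches in its window on the plus strand at chr8:116850719-116850968, at −241, −230, −136 and −119. The match at −136 is the BCL6 core on the opposite strand. Only 2 of the 33469 windows held 4 or more matches, those of Cish and of LOC120095689.
Cish: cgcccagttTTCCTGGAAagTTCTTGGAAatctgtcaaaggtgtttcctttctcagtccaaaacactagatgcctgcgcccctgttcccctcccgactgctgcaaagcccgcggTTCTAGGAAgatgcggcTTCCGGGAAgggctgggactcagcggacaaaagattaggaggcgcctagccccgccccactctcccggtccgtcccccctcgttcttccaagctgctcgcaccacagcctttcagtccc

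Prlr, which encodes the prolactin receptor, had the same 9 letters at −176 in the window of one of its 2 start sites, on the plus strand at chr2:60909409-60909658, and none in the other. A match is a description of the letters and not evidence of binding.
Prlr: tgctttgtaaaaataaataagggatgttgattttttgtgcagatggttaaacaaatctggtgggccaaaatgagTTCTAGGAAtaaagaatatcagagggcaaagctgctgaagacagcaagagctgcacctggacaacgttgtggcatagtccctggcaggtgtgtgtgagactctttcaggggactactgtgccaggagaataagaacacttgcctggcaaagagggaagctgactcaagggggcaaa

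Among 24 further genes reported as repressed by BCL6, 21 were tested, Irf4 failed the filter on dim probes, and Atr and Nfkb1 had no named probe. Beside 9.2% of all genes tested, 1 of the 21 passed the adjusted p. The median log2 fold-change of the 21 was −0.06, with 10 values above 0 and 11 below. The gene that passed was Socs2, which encodes a suppressor of growth hormone signalling (A_42_P543004, chromosome 7, 10 spots). It read −5.67, −5.44, −5.23 and −5.31 in the females and −6.45, −6.71, −6.94 and −6.19 in the males. Every male lay below every female, and Socs2 was 2.24-fold higher in females. This is a log2 fold-change of −1.16 (SE 0.168, limma adjusted p = 0.00622), with −1.05 within one row of the slide and −1.27 within the other. Under 18 other ways of scaling, filtering and fitting the data it ranged from −1.29 to −0.74, the smallest under normexp background correction.

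Cish was chosen for description after its values were seen. Its leading probe (A_64_P046268, chromosome 8) read −1.34, −0.83, −1.68 and −1.31 in the females and −3.32, −2.88, −2.94 and −0.66 in the males. Males 1 to 3 lay well below all females, whereas male 4 lay above all of them. For this probe, the log2 fold-change was −1.16 with a standard error of 0.538, and neither limma (adjusted p = 0.219) nor the exact permutation test (p = 0.143) passed. Without male 4, it was −1.76 with an adjusted p of 0.00638 from limma, and it was −1.83 in the slide row that did not hold male 4. The other probe of Cish (A_43_P16086) read −3.94, −3.55, −4.05 and −4.24 in the females and −5.15, −5.10, −4.74 and −3.56 in the males. Male 4 was again the highest male, but here it lay within the range of the females. The probe did not pass either, with an adjusted p of 0.247 from limma.

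In male 4, then, Bcl6 was lowest among the males while Cish and Socs2 were highest. It lay 0.83 below the nearest male for Bcl6, 2.23 above for Cish and 0.26 above for Socs2. As a background, male 4 lay outside the range of the other 3 males for 45.7% of all tested probes. At least as far out in the same direction were 67 of the 23425 probes for the Bcl6 gap, 7 for the Cish gap and 543 for the Socs2 gap. For Cish, the gap is that of the leading probe. Because Cish was chosen after its values were seen, its count is a description and not a test. Within the females no such order was present: female 2 had the highest Bcl6 and also the highest Cish. Over all 8 rats, Cish and Bcl6 lay on the same side of the mean of their own sex in 3, and so did Socs2 and Bcl6.

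**Figure D3:**
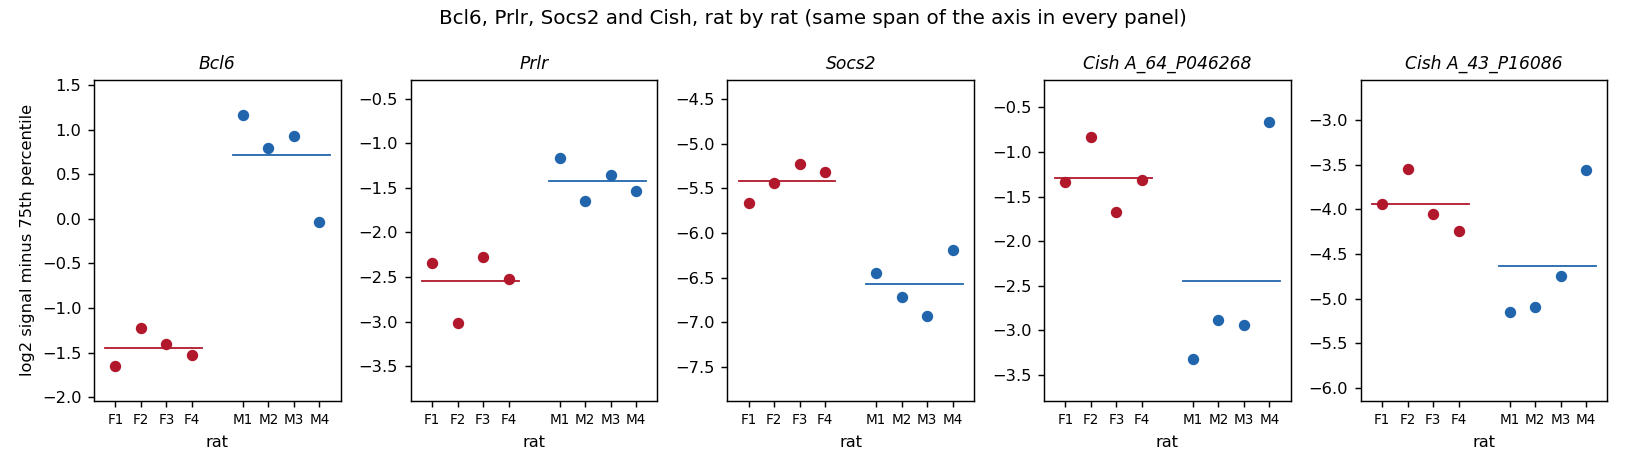
Log2 signal minus the 75th percentile of the array for Bcl6, Prlr, Socs2 and both probes of Cish in females F1 to F4 (red) and males M1 to M4 (blue), with a line at the mean of each sex. In M4, Bcl6 is at −0.04, the lowest of the males, and the leading probe of Cish is at −0.66, above every other rat.

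Of 13 genes known to act upstream of Bcl6, 11 were tested, and Foxo1 and Ep300 had no named probe. The median of the 11 was 0.14, with 8 values above 0 and 3 below. While 9.2% of all genes tested passed the adjusted p, 1 of the 11 did. This was Prlr (A_44_P187181, chromosome 2, 10 spots). In the females it read −2.35, −3.02, −2.28 and −2.52, and in the males −1.16, −1.65, −1.35 and −1.54. All males lay above all females, and Prlr was 2.17-fold higher in males, or 1.12 on the log2 scale (SE 0.177, limma adjusted p = 0.00879). Within the rows of the slide it was 1.05 and 1.18. From the mean of all 8 rats Prlr deviated to the same side as Bcl6 in 8 rats, and from the mean of its own sex in 4. The growth hormone receptor Ghr did not pass, with 0.28 and an adjusted p of 0.0994, although its ranges did not overlap. The transcription factors Stat5a and Stat5b gave 0.20 and 0.16 and overlapped. Jak2, the kinase that links these receptors to STAT5, had the opposite sign, at −0.34 with overlapping ranges (limma adjusted p = 0.212), and it passed without female 2. Ghr, Stat5a, Stat5b and Jak2 were named after their values were seen.

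The corepressor complexes beyond Ncor1 and Bcor were covered by 25 listed genes. Of these, 16 were tested, Hdac2 and Zbtb16 failed the filter, and Hdac4, Hdac7, Hdac9, Sin3a, Bcorl1, Rybp and Rnf2 had no named probe. In limma 0 passed the adjusted p, against 9.2% of all genes tested. An unadjusted p below 0.05 was found for 5, against 25.6% of all tested probes. The median log2 fold-change was 0.06, and 11 values were above 0 and 5 below. The ranges did not overlap for 5 of the 16, against 18.4% of all probes. Among them, Ctbp2 and Hdac5 were higher in females and Usp7 and Tbl1x higher in males.

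Partners of the repressed targets, which are further cyclins, kinase inhibitors and members of the BCL2 family, were 15 genes, of which 14 were tested and Cdk6 had no named probe. The median was 0.06, with 8 values above 0 and 6 below. Against 9.2% of all genes tested, 2 of the 14 passed, in opposite directions. Cdkn1c encodes p57, a kinase inhibitor related to p21 that is also a podocyte marker in the adult kidney. Its leading probe (A_64_P165085, chromosome 1) read 1.47, 1.56, 1.47 and 1.58 in the females and 1.05, 1.16, 1.14 and 1.12 in the males. The sexes formed separate narrow groups. For Cdkn1c, the log2 fold-change was −0.41 (SE 0.0629, limma adjusted p = 0.00796) and values were 1.33-fold higher in females. A second probe of Cdkn1c was 1.46-fold higher in females with an adjusted p of 0.00462. The podocyte marker Podxl was also higher in females, by 1.21-fold with an adjusted p of 0.0354 that 9 of 18 alternative settings raised above the threshold, while Nphs1 gave −0.16 and did not pass. The part of podocyte RNA in the result for Cdkn1c was not tested.

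Cdkn2c encodes p18, an inhibitor of CDK4 and CDK6 (A_43_P13144, chromosome 5). It read −3.03, −3.11, −2.75 and −3.06 in the females and −2.60, −2.53, −2.49 and −2.74 in the males. Male 4, the lowest of the males, and female 3, the highest of the females, were nearly level. The log2 fold-change was 0.40 with an adjusted p of 0.0476 from limma, just below the threshold, and 12 of 18 alternative settings raised it above the threshold, leaving out any of 7 of the 8 rats among them.

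Finally, the genes were ranked by how closely their profile over the 8 rats followed that of Bcl6, as the root mean square difference after centring each gene on its mean, over 13148 named probes well above background on every array. The 5 nearest were Mlph (melanophilin, 0.234), Anxa13 (an annexin, 0.36), Rasl12 (0.373), Akr1c13 (an aldo-keto reductase, 0.384) and Fitm1 (a protein of lipid droplet formation, 0.386), where a flat profile would give 1.13. These genes share the step between the sexes, by which the ranking picks them. The ranking also picks by the values within each sex, male 4 included, so that no test is given. Mlph read −3.17, −3.24, −3.05 and −3.07 in the females and −0.99, −1.12, −1.15 and −1.76 in the males. Male 4 was the lowest male for Mlph, Anxa13 and Fitm1 as for Bcl6, while male 2 was lowest for Rasl12 and male 3 for Akr1c13. Among the 5 genes nearest to the mirror image of Bcl6 were Foxq1 (a forkhead transcription factor, 0.301), Cpe (carboxypeptidase E, 0.327), Azgp1 (0.446) and Mlana (0.465). Foxq1 read −1.02, −1.10, −1.81 and −1.72 in the females and −3.95, −3.94, −3.78 and −3.07 in the males, with male 4 the highest male. The same 5 genes were nearest under quantile normalization, in the log2 values of the authors, with normexp and with outlier spots kept. For the mirror image this held too, except that normexp kept 3 of the 5 and brought in Cnr1 and Cyp4f4.

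**Figure D4:**
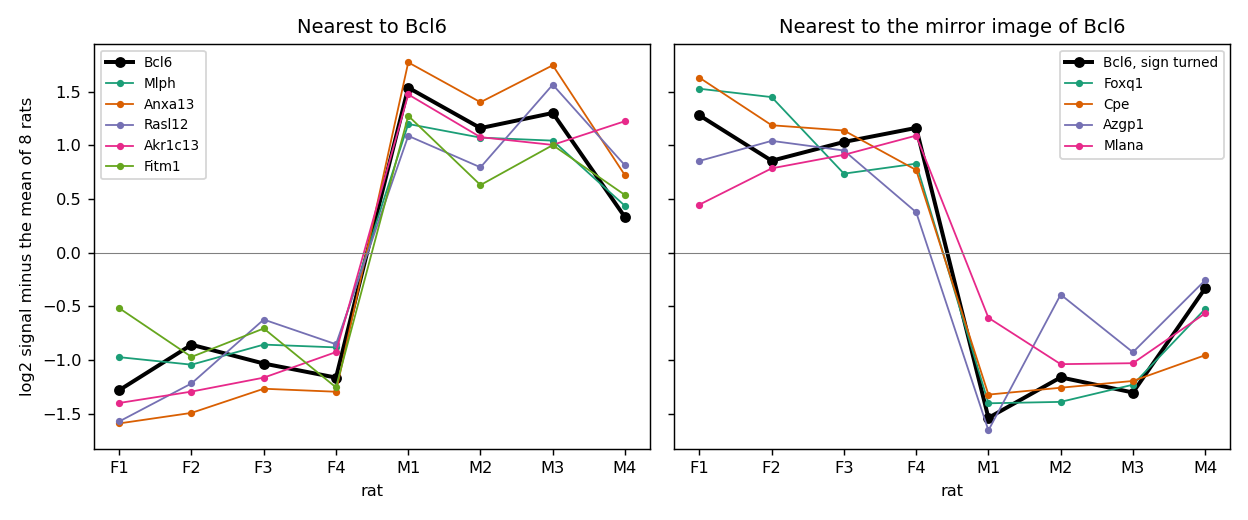
Log2 signal of single rats minus the mean of the 8 rats, for Bcl6 (black) and the 5 genes nearest to its profile (left), and for Bcl6 with its sign turned (black) and 4 of the 5 genes nearest to that (right). The genes were picked for this likeness, with root mean square differences of 0.234 to 0.386 on the left and 0.301 to 0.465 on the right.

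On the same scale of likeness, the other member genes were far from Bcl6. Their root mean square differences ran from 1.07 for Ccnd1 to 1.25 for Bcl2l1, close to that of the flat profile. For Ccnd1, 19.8% of the compared probes were nearer to Bcl6, and for Bcl2l1 79.8%. Against the mirror image, Bcl2l1 was the nearest of the member genes with 1.03.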

How the data were processed

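Each of the 8 arrays received a Cy3-labelled sample prepared from total RNA of the kidney cortex of 1 rat, and all shared 1 slide and 1 scan. The deposited files give, per spot, the signal intensity from Feature Extraction 10.7.3.1, background-subtracted and spatially detrended, without normalization between arrays. A table of log2 values deposited by the authors (median 8.3252 to 8.3521 on the 8 arrays) had the same rank order as the signals on every array. Its scale and direction follow from that match, and its values resemble quantile normalization. The submitters' processing notes name limma 3.8.2 without a role.

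Signals other than outlier spots were converted to log2, scaled to the 75th percentile of all non-control spots (5025 to 6547 as intensity) and averaged per probe. No spot was saturated, and per array 73.8% to 79.1% of probes exceeded background clearly. Probes well above background on at least 4 arrays were fitted as male minus female in limma 3.58.1 (R 4.3.3, data.table of version 1.17.8) with the default prior, and p was adjusted by Benjamini-Hochberg over 23425 probes. For single probes, a two-sided exact permutation test over 70 assignments was added. Groups came from the labels. Tested on simulated data with 200 of 23400 probes changed by 2, the fit recovered 187 (93.5%) with 2 false calls. A call there needed an adjusted p below 0.05 and a log2 fold-change of at least 1. Calls by the adjusted p alone were not counted, and smaller changes were not simulated. Figures and the motif search were made with Python 3.11.15, pandas 2.3.3 and matplotlib 3.10.9.

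Genes were named through the RefSeq transcript of the probe, which gave 17514 probes and 14737 genes a name. Chromosomes are those of RefSeq, build GRCr8. The members and all lists were chosen with earlier results of these data known. Named in the text were all probes of the members, list genes with an adjusted p below 0.05, genes not measured, and the 5 genes nearest to Bcl6 and to its mirror image. Some of these genes are not reported here. Further genes of the lists that did not pass (Cish, Ghr, Stat5a, Stat5b, Jak2, Ctbp2, Hdac5, Usp7, Tbl1x and the cell type markers Cd79b, Cd3d, Cd3e, Cd3g, Cd4, Cd8a, Umod and Nphs1) were named after their values were seen. Replicate numbers were checked for pairing: deviations of same-numbered rats correlated by −0.008 to 0.125, over 0.1 in 2 of 4 pairs. For 3 of the 4 males, the correlation was highest with the female of the same number. The labels do not state that the numbers pair rats, and they were not treated as pairs. Alternatives were quantile normalization, the authors' log2 values, normexp (offset 50) on the median spot signal, no filter or a filter on all 8 arrays, outlier spots kept, array weights, a robust prior with an intensity trend, a block for the replicate number or for the slide row, leaving out each rat, and the mean of the probes of a gene.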

Additional observations from a re-analysis of the deposited data

Results flagged for a closer look

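Each sex has 4 rats, and a rat was marked when its gap to the nearest of the others took up so much of the range of its sex that it passed Dixon's 95% critical value. Of 60 groups looked at, 3 held such a rat, which is the number of 3 expected by chance. For the dim probe A_44_P398574 of Prdm1, female 2 read −9.16, below the other females at −7.40 to −7.30, and the probe was not well above background in that rat. For the probe A_64_P054730 of Bcl2l1, female 1 read −5.10, above the other females at −6.71 to −6.48. For the leading probe of Cish, male 4 read −0.66, above the other males at −3.32 to −2.88. The causes were not tested.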

How the results depend on the processing

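Bcl6 passed under all 18 alternatives, with log2 fold-changes of 2.01 to 2.42 and adjusted p of 0.000543 to 0.017 from limma. Socs2, Prlr and Cdkn1c also passed under all 18 alternatives. The leading probe of Bcl6b changed its sign with quantile normalization (0.038), in the authors' log2 table (0.037) and when its probes were averaged (0.036), and ranged from −0.114 to 0.07 on leaving out single rats. On leaving out single rats, the log2 fold-change ran from −0.031 to 0.369 for Prdm1, from −0.003 to 0.284 for Ccnd1 and from −0.148 to 0.015 for Cdkn1a. For the further probes it ran from −0.306 to 0.358 (A_44_P398574 of Prdm1), from −0.049 to 0.189 (A_44_P914438 of Cdkn1a), from −0.289 to 0.016 (A_64_P008047 of Bcl2l1) and from −0.207 to 0.332 (A_64_P054730 of Bcl2l1). Signs also turned for A_44_P398574 with normexp (−0.053) and array weights (−0.015), for A_64_P008047 with array weights (0.039), and for A_64_P054730 with quantile normalization (0.064), the log2 values of the authors (0.055) and array weights (0.011). None of these probes passed under any alternative. With an intensity trend and a robust prior, Bcl2l1 (−0.229) passed, which made 2 member genes, and so did 1 corepressor gene. On leaving out single rats, corepressor genes that passed numbered 0 to 1 (1 without male 4), other repressed targets 1 to 2 (Cish without male 4), upstream genes 1 to 2 (Jak2 without female 2) and cyclin and BCL2 partners 1 to 2. Without a filter on dim probes, 2 other repressed targets passed, Irf4 and Socs2. The cyclin and BCL2 partners fell to 1, Cdkn1c, with normexp, no filter, array weights and the slide row as a block. The replicate number as a block left 1 such partner and 1030 of all probes, against 1889, and also cost Podxl its call (limma adjusted p = 0.0957), while no other call among the members and the 4 lists changed. All probes that passed numbered 1194 without the filter and 1012 to 1544 on leaving out single rats, fewer by over 1.5 times for each rat but female 4. Other causes were not tested. Signal over background limits Socs2, Cd79b and Cd3e, which are dim.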
